A study of Mus musculus with 12 samples.

Results

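Messenger RNA of the Gq, phospholipase C beta and inositol 1,4,5-trisphosphate (IP3) receptor pathway was examined in the mouse hypothalamus through 10 of the 27308 genes named on the array: Gnaq, Gna11, Plcb1, Plcb2, Plcb3, Plcb4, Itpr1, Itpr2, Itpr3 and Prkca. Members were every probe of the normalized array table whose gene symbol is one of these, which gave 34 of 56605 probes, and each probe was kept separate. Of them 30 passed the detection filter, which asked for a signal well above background in every array of some group, among 35230 probes that passed in all. The genes were chosen by measured values in part: Plcb2 and Itpr2 were selected on their fold changes on these same arrays, in KO versus WT and in KE versus KO, where the study had listed them. Values of Plcb2 in KO versus WT and of Itpr2 in KE versus KO are therefore given as a description.

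Gq-class G proteins carry the signal of receptors for hormones and transmitters such as serotonin, acetylcholine and oxytocin to phospholipase C beta, the enzyme that splits a membrane phosphoinositide into IP3 and diacylglycerol. IP3 opens its receptors on the endoplasmic reticulum and releases calcium, while diacylglycerol activates protein kinase C. In hypothalamic neurons this pathway is known for shaping firing and neurohormone release.

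Total RNA of male mouse hypothalamus was hybridized to 1-color Agilent arrays, with 3 arrays in each of 4 groups. WT mice were wild-type littermates without training, KO mice were homozygous for a 20-bp deletion in Asmt, the gene of the last enzyme of melatonin synthesis, without training, exercised WT mice were wild-type with swimming exercise, and KE mice carried the deletion and swam. All came from 1 CRISPR line on the C57BL/6 background, a strain known for low Asmt activity, backcrossed for 3 generations, and all are labelled with an age of 6 to 7 weeks, which the study's methods give as the start of training. Nothing in the labels says whether an array held RNA of 1 mouse or a pool, so p-values measure the spread between these samples, which may be partly technical.

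The Asmt probe was not well above background on any of the 12 arrays, so the genotype could not be checked from it. The hypothalamus label was borne out by its markers, of which 19 of 20 were detected on all 12 arrays. Arrays lay on 2 slides: slide 1 held WT replicates 1 to 3 with KO replicates 1 and 2, whereas slide 2 held KO replicate 3 and all exercised WT and KE arrays. The first principal component took 47.3% of the variance and placed slide 1 between -47.5 and -29.5 and slide 2 between 19.3 and 40.0, with KO replicate 3 at the upper end. Slide and swimming cannot be told apart in exercised WT versus WT and KE versus WT, except through the lone KO array on slide 2, while KE versus exercised WT lay wholly within slide 2. Fits with the slide as a block are given beside the results they change.

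The probes on which the results turned are shown as the bases printed on the array, 5′ to 3′ and in capitals. The 5 Plcb2 probes are listed first because they gave different patterns. Positions come from the annotation file of the array (build mm9), and all lie on the minus strand of chromosome 2. The 3 probes whose place relative to the coding end was not settled are shown by their first 30 bases.
Plcb2 base 1753, A_55_P1961444, chr2:118542766-118542825: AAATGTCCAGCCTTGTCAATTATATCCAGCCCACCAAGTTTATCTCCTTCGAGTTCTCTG
Plcb2 base 2194, A_66_P138288, chr2:118540171-118540230: AGCAAGTTGCCTTGGAAACTGCCTCCTCCT
Plcb2 base 2577, A_52_P583291, chr2:118537874-118537933: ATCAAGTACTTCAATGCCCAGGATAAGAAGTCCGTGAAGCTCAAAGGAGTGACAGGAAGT
Plcb2 base 3767, A_52_P365466, chr2:118534571-118534630: GGATTAGAGACTATCAAGGGCAAGGGTCCT
Plcb2 base 5008, A_55_P2173298, chr2:118533330-118533389: AGTTACAACAGATGCCAGTAACTGTGAGCA

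The base number is the start of the probe in the sequence it was designed on, which was a RefSeq transcript for 4 of these probes and a GenBank cDNA for A_66_P138288. For Itpr2, on the minus strand of chromosome 6, the probe listed by the study, the brightest probe and a coding probe are shown. The first was designed on a sequence with no accession in the annotation, and it and the brightest probe are again cut to 30 bases.
Itpr2 base 640, A_55_P2720874, chr6:146069177-146069236: CTATTAAAAGGACTCTGAAAGATTCTTGTG
Itpr2 base 8554, A_51_P500051, chr6:146060030-146060089: AAACAACCAAGTGCCAAGATGCTGAGCCAT
Itpr2 base 2839, A_55_P2735430, chr6:146321651-146321710: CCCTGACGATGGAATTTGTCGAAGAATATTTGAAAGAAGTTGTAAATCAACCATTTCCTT

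Probes near the 5′ end of 3 other transcripts are shown because they differed between slides in the opposite sense from the 3′ probes of the same genes. The Plcb4 and Itpr1 probes span 3117 and 4237 bases of the genome and so cross a splice junction.
Plcb1 base 1106, A_52_P506930, chr2:135087886-135087945: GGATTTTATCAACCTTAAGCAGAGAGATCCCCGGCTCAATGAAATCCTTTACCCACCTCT
Plcb4 base 958, A_55_P2631510, chr2:135772866-135775982: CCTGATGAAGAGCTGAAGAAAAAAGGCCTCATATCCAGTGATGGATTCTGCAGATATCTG
Itpr1 base 395, A_55_P2932328, chr6:108187033-108191269: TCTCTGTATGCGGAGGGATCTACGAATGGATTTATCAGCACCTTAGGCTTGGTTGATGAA

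Most members did not pass the screening criterion of the study, which asked for a 2-fold change or more at an unadjusted p no higher than 0.05. In each of the 6 comparisons 1 of 30 tested member probes met it. That probe was Plcb2 base 1753 everywhere except in KE versus KO, where it was Itpr2 base 640. Over all 35230 probes the criterion was met by 0.224% for KO versus WT, by 1.21% for KE versus KO, by 2.19% for exercised WT versus WT, by 0.253% for KE versus exercised WT, by 2.74% for KE versus WT and by 0.593% for the swimming by genotype interaction. For the Plcb2 and Itpr2 probes in the contrasts that chose them nothing is read from these shares. Nor is anything read from them for Plcb2 base 1753 in the other contrasts, because it passed the detection filter through WT alone. With the slide as a block the count of member probes was 1 in every comparison but KE versus KO, where it was 0, and the shares of all probes were 0.253%, 0.48%, 0.786%, 0.255%, 0.798% and 0.747% in the same order.

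No member probe had a Benjamini-Hochberg adjusted p under 0.05 in limma in any comparison, against 0.0199% of all probes in KE versus KO and 0 in the others. At an unadjusted p under 0.05 there were 4 member probes for KO versus WT, also 4 for KE versus KO, 13 for exercised WT versus WT, 5 for KE versus exercised WT, 12 for KE versus WT and 2 for the interaction, beside 5.48%, 21.1%, 26%, 6.66%, 30.4% and 7.75% of all probes. When the methods' t-test was run in place of limma, 5 member probes had an adjusted p under 0.05 for KE versus WT, beside 13.8% of all probes. That comparison is crossed by the slide. In the 4 remaining pairwise comparisons 0 member probes did. Median log2 fold changes of the 30 probes lay between -0.16 in KE versus WT and -0.01 in the interaction, and those of all probes between -0.07 and -0.01.

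The Gq alpha subunits were bright and varied little within a slide. Gnaq, the defining member of the class, had a normalized log2 signal of 11.95, 12.23 and 11.94 on the WT arrays, 12.03, 11.95 and 12.55 on the KO arrays, 12.38, 12.37 and 12.37 on the exercised WT arrays and 12.40, 12.36 and 12.38 on the KE arrays. Every slide 2 array, KO replicate 3 included, lay above every slide 1 array. The slide means were 12.02 ± 0.12 (SD, n = 5) and 12.40 ± 0.07 (SD, n = 7).

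Gna11, the closest relative of Gnaq, read 12.18, 12.21 and 12.08 for WT, 12.11, 12.14 and 12.29 for KO, 12.20, 12.31 and 12.37 for exercised WT and 12.32, 12.26 and 12.29 for KE. Its 4 group means spanned 12.15 to 12.29, and groups next to each other in mean overlapped throughout. All KE arrays lay above all WT arrays, a comparison crossed by the slide. In KE versus exercised WT, where the slide was shared, Gnaq differed by 0.01 ± 0.14 (SE) on the log2 scale.

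**Figure D1:**
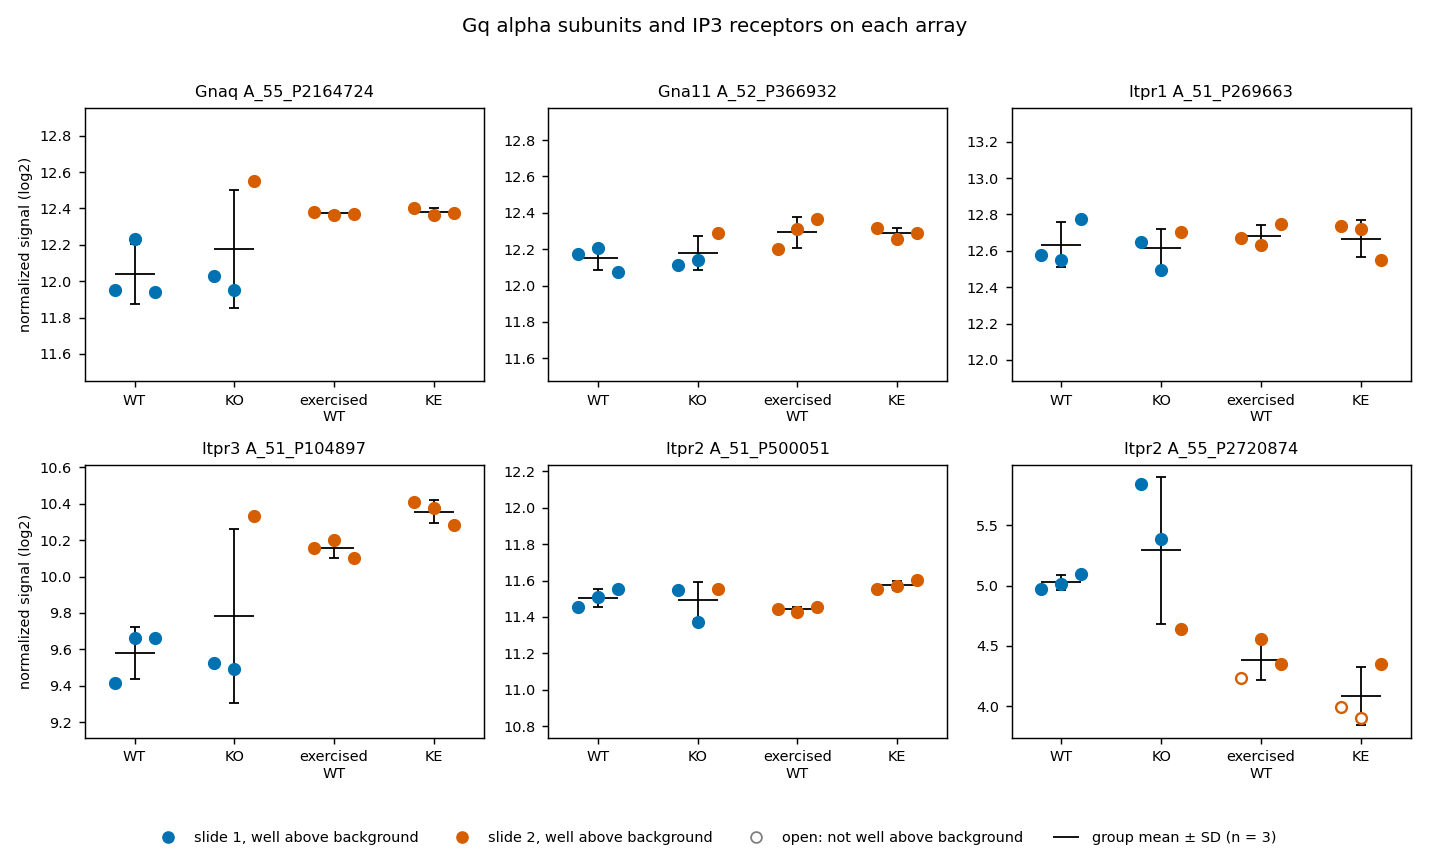
Normalized log2 signal of the Gnaq, Gna11, Itpr1, Itpr3 and 2 Itpr2 probes by group (x axis), with a point for each array, colored by slide and open where not well above background, and the group mean ± SD (n = 3) in black. KO replicate 3 sits with the slide 2 arrays for Gnaq (12.55) and Itpr3 (10.33), while Itpr2 A_51_P500051 stays between 11.37 and 11.60 on all arrays.

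Phospholipase C beta 2, an isozyme best known from taste cells and blood cells, gave the largest fitted differences of the set, at a single probe. Plcb2 base 1753 read 4.05, 5.96 and 5.62 on the WT arrays, 1.87, 2.85 and 1.85 on the KO arrays, 1.86, 1.86 and 1.88 on the exercised WT arrays and 2.60, 3.73 and 3.24 on the KE arrays. It was well above background on the 3 WT arrays and on none of the other 9. The WT arrays therefore stood above all others, and values not well above background have no reliable order. Because the probe passed the detection filter through WT alone, WT had to be the high group.

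With the undetected arrays raised to the lowest signal called well above background, Plcb2 base 1753 was 1.94-fold lower in KO than in WT. This holds for the normalized values used here and is no lower bound across processing. Under normexp background correction the log2 difference was -0.64. The WT mean was 5.21 ± 1.02 and the KO mean 2.19 ± 0.57 (SD, n = 3 each), and the fitted log2 difference was -3.02 ± 0.48 (SE). Within slide 1, with 2 KO and 3 WT arrays, it was -2.85.

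Against the same WT arrays and with undetected arrays raised in the same way, the signal was 2.53-fold lower in exercised WT. The mean there was 1.87 ± 0.01 (SD, n = 3), with a fitted log2 difference of -3.34 ± 0.48 (SE). In KE, at 3.19 ± 0.57 (SD, n = 3), the signal was 2.05-fold lower than in WT, with a fitted -2.02 ± 0.48 (SE). With the slide as a block these differences were -2.83 and -1.51, and KE versus WT no longer met the criterion. Under normexp background correction, without the block, the differences from WT were -0.66 in exercised WT and -0.46 in KE. All 3 comparisons share the WT arrays. The detection filter fixed the direction of each, so their values are a description and not a test.

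Plcb2 base 1753 also met the criterion in KE versus exercised WT, with a log2 difference of 1.32 ± 0.48 (SE) and a limma adjusted p of 0.693, and in the interaction, with 4.34 ± 0.68 (SE) and a limma adjusted p of 0.413. Neither group of the former was well above background, nor were 3 of the 4 groups of the latter, so no fold is given. In KE versus KO none of the 6 arrays was well above background and the groups overlapped.

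The other Plcb2 probes did not share this pattern. Base 3767 was detected on all 12 arrays, between 5.16 and 5.75, with group means of 5.50 ± 0.23 for WT, 5.42 ± 0.22 for KO, 5.27 ± 0.11 for exercised WT and 5.30 ± 0.09 for KE (SD, n = 3 each), and all neighbouring groups overlapped. Bases 2577 and 5008 were not well above background on any array. A_66_P138288 followed the slide, from 6.47 to 6.81 on slide 1 and from 7.14 to 7.73 on slide 2. Across the 12 arrays the 3 tested probes correlated with each other at Pearson r from -0.52 to 0.61, a description over arrays that share slides and groups.

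**Figure D2:**
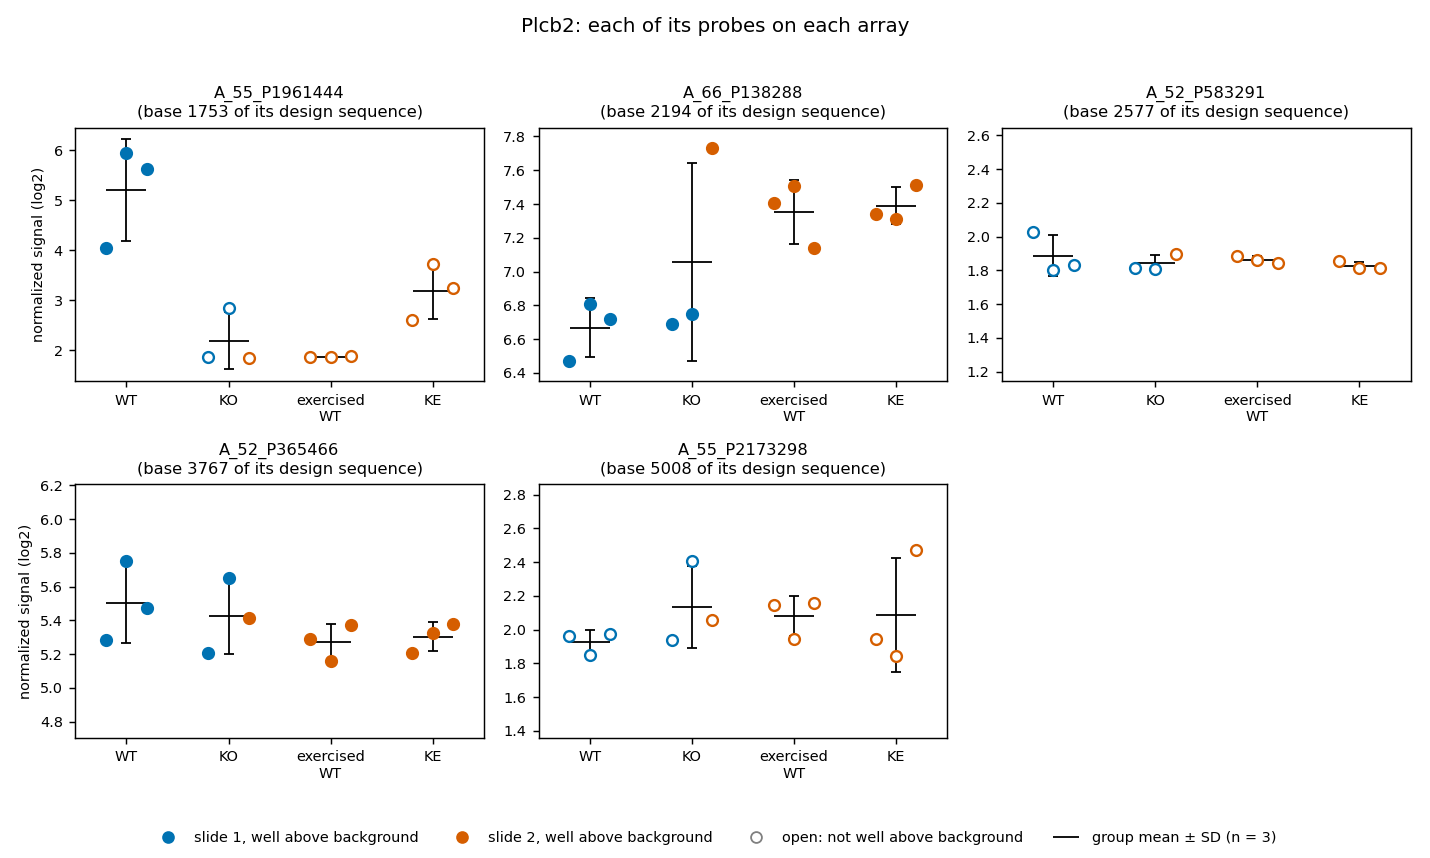
Normalized log2 signal of the 5 Plcb2 probes by group (x axis), with a point for each array, colored by slide and open where not well above background, and the group mean ± SD (n = 3) in black; each panel has its own y range. Base 1753 is filled on the WT arrays alone (4.05 to 5.96), base 3767 is filled on every array within 5.16 to 5.75, and 2 probes are open throughout.

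Markers of taste and tuft cells, which are known to express Plcb2, were detected on all 12 arrays for 3 of 8 genes, on some for 2 and on none for Trpm5, Gnat3 and Tas1r2. That list includes Itpr3, itself a member here, with means of 9.55 on slide 1 and 10.27 on slide 2. The sum of the list is therefore not separate from the members. Its summed log2 level reached 13.20 on the WT arrays. KO arrays spanned 13.06 to 13.23 and exercised WT arrays 13.13 to 13.28, so both groups overlapped WT. Every KE array, at 13.24 to 13.26, was above WT, but KE and WT lay on different slides. KO replicate 3, which shared slide 2 with KE, was above WT too, at 13.23. Exercised WT replicate 2, on the same slide, was not, at 13.13. The microglia and blood leukocyte list had 11 of 12 genes detected on all arrays. Its sum was 15.14 to 15.24 in WT and 15.13 to 15.32 in KO. It lay above all WT arrays on every exercised WT array, at 15.27 to 15.36, and every KE array, at 15.27 to 15.37. These comparisons with WT are crossed by the slide as well. The oligodendrocyte list, with 10 of 10 genes detected on all arrays, summed to 17.53 to 17.68 in WT and 17.48 to 17.64 in KO. Anterior pituitary markers summed to 7.62 to 8.14 in WT and reached 11.7 on a KO, 10.9 on an exercised WT and 11.1 on a KE array, with 2 of 7 genes detected on all arrays and Gh and Pou1f1 on none. Their part in the Plcb2 values was not tested. In bulk tissue, fewer cells of a type and less RNA per cell cannot be told apart.

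The genes whose probes ran most nearly with Plcb2 base 1753 over the 12 arrays were Pum2 (r = 0.91), Efcab5 (r = 0.90) and Sv2a (r = 0.90). That Plcb2 probe was well above background on the 3 WT arrays alone, so r rests largely on WT against the rest. The genes were picked as the highest r over all tested probes, and the values are a description.

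Plcb1, a neuronal isozyme, had 5 tested probes that split. Its brightest, base 7027, read 11.07, 11.20 and 11.29 for WT, 11.15, 11.25 and 11.30 for KO, 11.23, 11.28 and 11.53 for exercised WT and 11.16, 11.32 and 11.34 for KE, so all groups overlapped. Base 1106, near the 5′ end, averaged 7.46 ± 0.12 for WT, 7.26 ± 0.35 for KO, 7.36 ± 0.40 for exercised WT and 6.74 ± 0.12 for KE (SD, n = 3 each). All KE arrays lay below all exercised WT arrays on the same slide, a log2 difference of -0.62 ± 0.21 (SE) with a limma adjusted p of 0.675.

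Plcb1 A_55_P2735200, designed on a GenBank cDNA, averaged 5.23 ± 0.14 for WT, 4.68 ± 0.27 for KO, 4.90 ± 0.06 for exercised WT and 4.59 ± 0.24 for KE (SD, n = 3 each). The WT arrays were above all others. With the slide as a block it met the criterion in KE versus WT, at a log2 difference of -1.09 ± 0.21 (SE) and a limma adjusted p of 0.413, against -0.64 ± 0.15 (SE) without it.

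Plcb1 base 3439 was highest on exercised WT replicates 2 and 3, at 9.42 and 9.49, with 8.66 to 9.33 on the other 10 arrays. Beside it, the summed striatum markers, with 10 of 10 detected on all arrays, were highest on exercised WT replicate 3, at 16.44 against 15.89 to 16.09 elsewhere, and the cortex and hippocampus markers, with 7 of 10 detected on all arrays and Emx1 on none, were highest on exercised WT replicate 2, at 15.47 against 15.18 to 15.33. Their part in the Plcb1 values was not tested.

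Plcb3, a broadly expressed isozyme, was measured alike by its probes, which correlated at r = 0.84 over the 12 arrays. Base 4120 read 9.99, 9.81 and 10.10 for WT, 10.00, 9.98 and 9.90 for KO, 9.72, 9.68 and 9.81 for exercised WT and 9.93, 9.93 and 9.92 for KE. The exercised WT arrays lay below the KE arrays of the same slide, by 0.19 ± 0.07 (SE) on average with a limma adjusted p of 0.724, and overlapped the WT arrays. Base 3523 had its lowest mean in exercised WT as well, at 6.89 ± 0.10 against 7.01 ± 0.13 in KE (SD, n = 3), but there the groups overlapped.

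Plcb4, the isozyme known from cerebellar Purkinje cells, retina and thalamus, had 8 tested probes with opposed patterns, and 7 of its 28 probe pairs correlated negatively, from -0.84 to 0.93. The brightest, base 5142, read 11.65, 11.82 and 11.75 for WT, 11.78, 11.97 and 12.18 for KO, 12.13, 12.08 and 11.93 for exercised WT and 12.23, 12.25 and 12.14 for KE. All exercised WT and KE arrays lay above all WT arrays, and the KE arrays above the exercised WT arrays. Base 3598 went the other way, from 10.48 ± 0.06 in WT and 10.23 ± 0.41 in KO to 10.10 ± 0.14 in exercised WT and 9.89 ± 0.26 in KE (SD, n = 3 each). The remaining 6 probes had their highest mean in WT or KO, except base 2646 with 9.81 ± 0.10 in exercised WT.

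Among the IP3 receptors, Itpr1, the main neuronal type, was steady at its brightest probe. Base 9786 read 12.58, 12.55 and 12.78 for WT, 12.65, 12.49 and 12.70 for KO, 12.67, 12.63 and 12.75 for exercised WT and 12.73, 12.72 and 12.55 for KE, with overlap between all groups. Base 395 averaged 8.06 ± 0.31 for WT, 7.92 ± 0.47 for KO, 7.82 ± 0.16 for exercised WT and 7.71 ± 0.12 for KE (SD, n = 3 each). Base 5762 was lower on every KO array (8.21 to 8.74) than on every WT array (8.77 or higher). The probe A_55_P2731611 was well above background on KO replicate 3 alone and was not tested.

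Itpr2, the receptor type known from glia and heart, was called at its dimmest tested probe and not at the brightest. Base 640, A_55_P2720874, read 4.97, 5.01 and 5.10 for WT, 5.84, 5.39 and 4.64 for KO, 4.24, 4.56 and 4.35 for exercised WT and 3.99, 3.90 and 4.35 for KE. It was not well above background on exercised WT replicate 1 and KE replicates 1 and 2. All KE arrays lay below all KO arrays, and all slide 2 arrays below all slide 1 arrays.

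The KE versus KO difference at that probe, which chose the gene, was -1.21 ± 0.25 (SE) on the log2 scale, and -0.56 ± 0.21 (SE) with the slide as a block. Leaving out KO replicate 1 gave -0.93, under the 2-fold limit. KE and exercised WT arrays of the same slide overlapped, at 4.08 ± 0.24 and 4.38 ± 0.16 (SD, n = 3). Anterior pituitary markers were high on KO replicates 1 and 2 (11.69 and 10.79), where this probe was highest, and also on KE replicate 1 (11.09), where it was at 3.99. The astrocyte list, with 10 of 10 genes detected on all arrays, summed to 17.56 to 17.57 in WT, 17.43 to 17.64 in KO, 17.48 to 17.54 in exercised WT and 17.36 to 17.48 in KE. The part of either list was not tested.

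The brightest Itpr2 probe, base 8554, averaged 11.50 ± 0.05 for WT, 11.49 ± 0.10 for KO, 11.44 ± 0.01 for exercised WT and 11.57 ± 0.02 for KE (SD, n = 3 each). KE lay above exercised WT on every array, by 0.13 ± 0.06 (SE) with a limma adjusted p of 0.748. Base 2839 had group means of 5.17 to 5.52 and base 10909 of 5.76 to 5.92, with overlap between all neighbouring groups, and A_51_P468269 was detected on no array. Genes most alike in pattern to base 640 over the 12 arrays were St8sia6, Polr2d and Zfp870 (r = 0.97 each), picked as the highest r over all tested probes and given as a description.

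Itpr3, the type that works with Plcb2 in taste cells, followed the slide. It read 9.41, 9.66 and 9.66 for WT, 9.52, 9.49 and 10.33 for KO, 10.16, 10.20 and 10.10 for exercised WT and 10.41, 10.38 and 10.28 for KE. The KO array on slide 2 stood with the exercised groups, 0.83 above the mean of the other KO arrays. With the slide as a block, the log2 difference of KE versus KO went from 0.57 ± 0.19 (SE) to 0.02 ± 0.10 (SE). Within slide 2 every KE array lay above every exercised WT array, by 0.20 ± 0.19 (SE) on average. With the slide as a block this was 0.20 ± 0.07 (SE), with a limma adjusted p of 0.424.

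Prkca, the conventional protein kinase C alpha, was the steadiest member. Base 8284 read 12.74, 12.72 and 12.87 for WT, 12.83, 12.79 and 12.78 for KO, 12.69, 12.81 and 12.89 for exercised WT and 12.76, 12.86 and 12.81 for KE. Base 3423 averaged 9.58 ± 0.03 for WT, 9.62 ± 0.05 for KO, 9.73 ± 0.04 for exercised WT and 9.59 ± 0.04 for KE (SD, n = 3 each). The 3 exercised WT arrays were above all others at that probe, and KE versus exercised WT differed by -0.14 ± 0.05 (SE) with a limma adjusted p of 0.693.

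**Figure D3:**
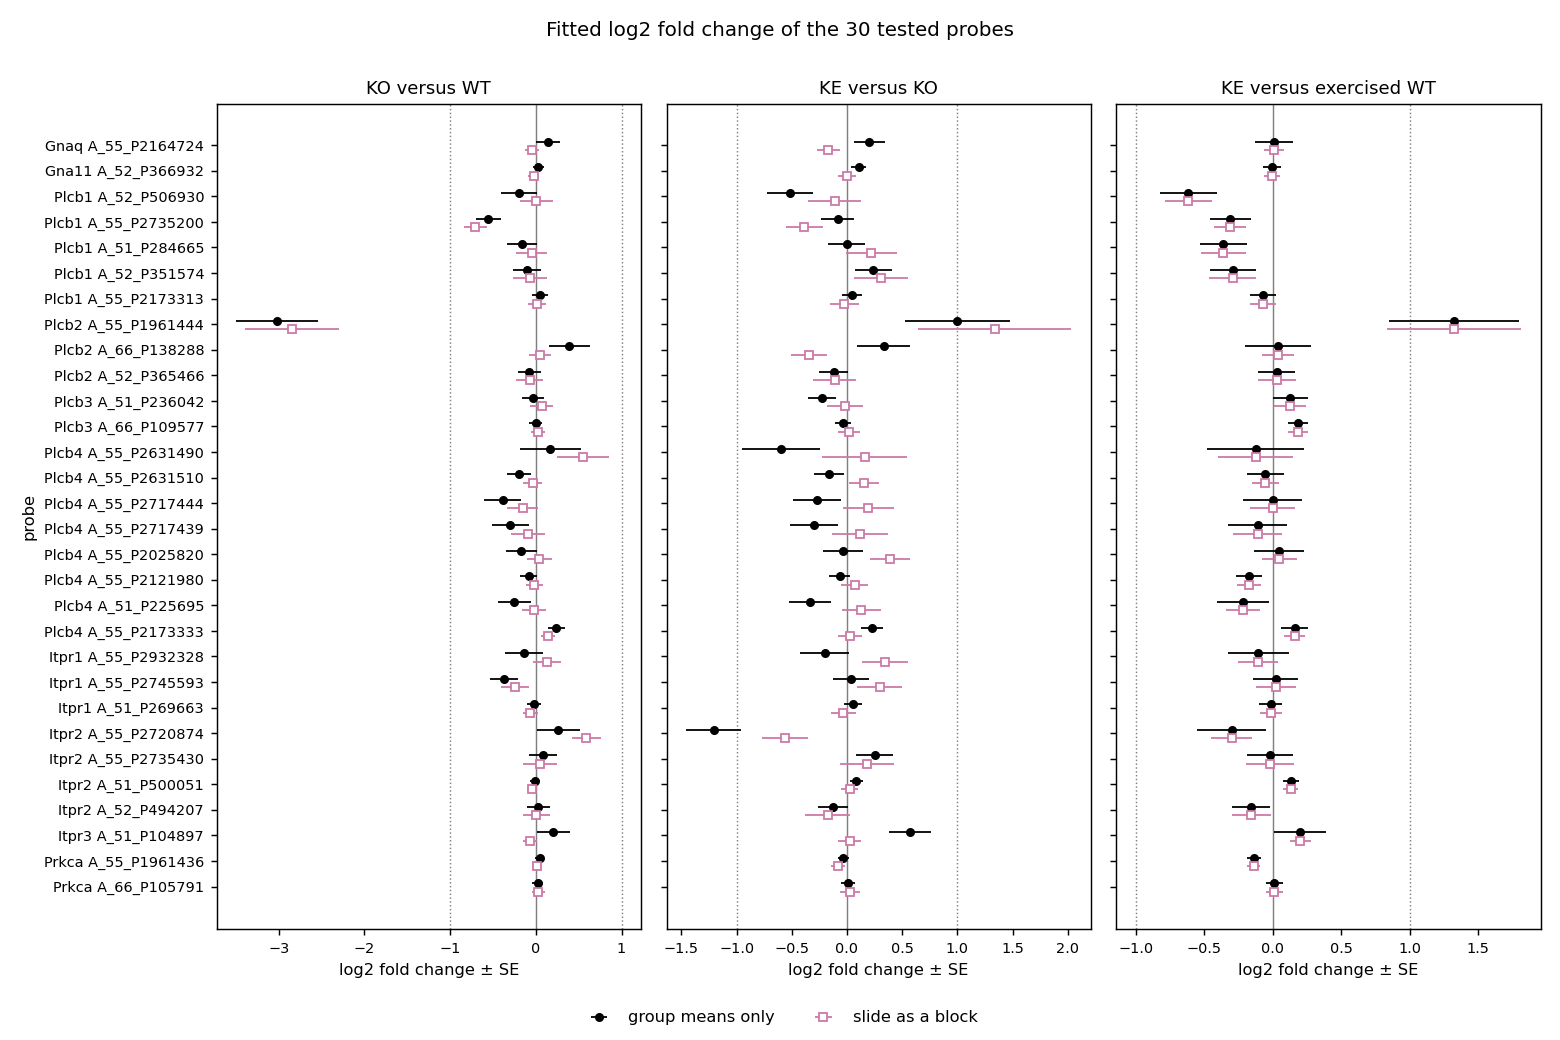
Log2 fold change ± SE (x axis) of the 30 tested probes (rows) in KO versus WT, KE versus KO and KE versus exercised WT, from group means alone (black) and with the slide as a block (open squares); dotted lines mark a 2-fold change, and each panel has its own x range. Plcb2 A_55_P1961444 stands apart (-3.02 in KO versus WT and 1.32 in KE versus exercised WT, where neither group was well above background), Itpr2 A_55_P2720874 moves from -1.21 to -0.56 in KE versus KO under the block, and the other probes stay within the dotted lines.

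Counts of probes whose groups did not overlap were set beside the same count over all probes. In KO versus WT 4 of 30 member probes (13.3%) did not overlap, all lower in KO, beside 8.58% of all probes. They were Plcb1 A_55_P2735200 and base 3439, Plcb2 base 1753 and Itpr1 base 5762. Plcb2 base 1753 was chosen on this contrast and passed the detection filter through WT alone, so its direction was fixed. In KE versus exercised WT, on a single slide, it was 8 of 30 (26.7%) beside 19.5%. One of the 8 was Plcb2 base 1753, not well above background on any array of either group and so without a direction. KE was higher at Plcb3 base 4120, Plcb4 base 5142, Itpr2 base 8554 and Itpr3, and lower at Plcb1 base 1106 and A_55_P2735200 and at Prkca base 3423.

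In the comparisons crossed by the slide, 14 of 30 (46.7%) did not overlap in exercised WT versus WT beside 37.6%, 16 of 30 (53.3%) in KE versus WT beside 44.1%, and 2 of 30 in KE versus KO beside 21.5%. Between the slides themselves 7 of 30 member probes (23.3%) did not overlap, beside 21.8% of all probes. Of these 3 were higher and 4 lower on slide 2, beside 10.4% and 11.5% of all probes. Those higher were Gnaq, Itpr3 and Plcb2 A_66_P138288, and those lower were Itpr2 base 640 and 3 Plcb4 probes.

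KO replicate 3 differed by at least 0.5 on the log2 scale from the mean of KO replicates 1 and 2 at 12 of 30 member probes, beside 17.2% of all probes. It was higher at 3 and lower at 9 of them, beside 10.2% and 7.03% of all probes, and 1 of the lower probes was Plcb2 base 1753, not well above background in KO. The members are not independent of each other here, since 5 of the 9 lower probes belong to Plcb4. Without KO replicate 3, KE versus KO compared slide 2 with slide 1 alone, and 8 member probes (26.7%) then had a limma adjusted p under 0.05, beside 24.3% of all probes.

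Within Plcb1, Plcb4 and Itpr1, probes near the 5′ end were lower on slide 2 and probes near the 3′ end were not. At Plcb4 the slide difference in log2 signal went from -0.35 at base 958 to 0.34 at base 5142, at Itpr1 from -0.40 at base 395 to 0.07 at base 9786, and at Plcb1 from -0.44 at base 1106 to 0.12 at base 7027. Plcb4 base 3598, at -0.51, broke the order. Itpr2 did not have it, with 0.30 at base 2839 and -0.01 at base 10909.

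Over transcripts with probes at least 1000 bases apart, the 3′ probe had the higher slide difference in 4 of 6 member transcripts (66.7%) and in 62.4% of 2628 transcripts of all genes. The median excess of the 3′ probe was 0.37 in the members and 0.08 in all. One of the 4 was Plcb2, whose 5′ probe, base 1753, passed the detection filter through WT arrays of slide 1 alone and so had to be lower on slide 2. Without Plcb2 it was 3 of 5 (60%), with a median excess of 0.27. The share among the members was near that of all genes either way.

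**Figure D4:**
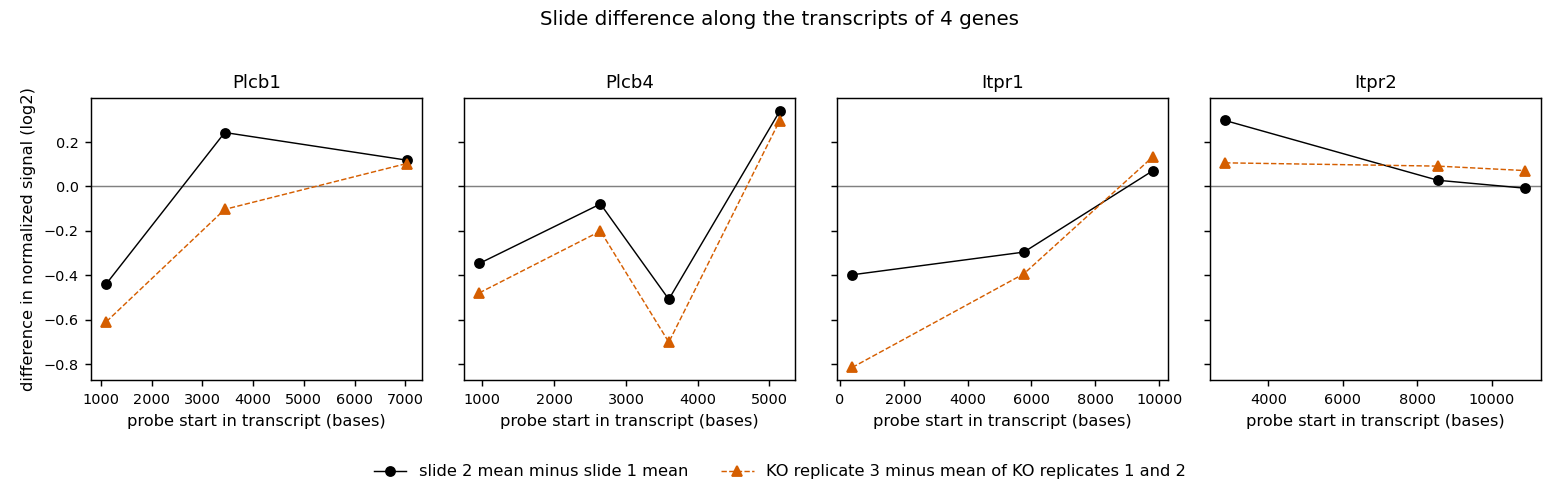
Difference in normalized log2 signal (y axis) against the start of the probe in its RefSeq transcript (x axis, bases) for the tested probes of Plcb1, Plcb4, Itpr1 and Itpr2, as slide 2 mean minus slide 1 mean (circles) and as KO replicate 3 minus the mean of KO replicates 1 and 2 (triangles). The first probe is lower and the last probe higher on slide 2 for Plcb1 (-0.44 and 0.12), Plcb4 (-0.35 and 0.34) and Itpr1 (-0.40 and 0.07), and not for Itpr2 (0.30 and -0.01).

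The wider pathway was followed through 227 listed genes. They covered other Gq-class subunits and their regulators, Gq-coupled receptors, other phospholipase C isozymes, and other protein kinase C isozymes, diacylglycerol receptors and kinase substrates. They also covered enzymes of phosphoinositide, diacylglycerol and inositol phosphate metabolism, partners of the IP3 receptor, calcium stores and entry, and calcium effectors. Of the 227 genes 214 were tested, with 432 probes. None met the criterion in KO versus WT, beside 0.224% of all probes. In KE versus KO 3 probes were higher (0.694% beside 1.21%), with exercised WT against WT 3 (0.694% beside 2.19%), with KE against exercised WT 1 (0.231% beside 0.253%) and with KE against WT 6 (1.39% beside 2.74%). In the interaction 1 was lower (0.231% beside 0.593%). No probe of the lists had a limma adjusted p under 0.05.

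Probes past the criterion against WT were those of the calcium pump gene Atp2c1 (1.40 ± 0.29 in exercised WT and 1.63 ± 0.29 in KE), the phosphatidylinositol transfer protein gene Pitpnb (1.66 ± 0.50 and 2.02 ± 0.50), the calcium release channel gene Ryr1 (1.35 ± 0.37 and 1.40 ± 0.37), all as log2 difference ± SE, and, in KE, Daglb, Homer2 and Plcd4 (1.49 ± 0.43, 1.02 ± 0.41 and 1.03 ± 0.28). With the slide as a block none of these still met it, and those of Pitpnb became -0.57 and -0.22. Of the 14 calls of the lists, 7 changed sign under the block, at Pitpnb, Ryr1, Homer2 and Plcd4. The block also brought 2 probes past the criterion, both lower: Car8, of a binding partner of the IP3 receptor, in exercised WT versus WT (-1.01 ± 0.40, SE, limma adjusted p of 0.793) and Mrvi1, of another such partner, in KE versus WT (-1.12 ± 0.49, SE, limma adjusted p of 0.995). Without the block Car8 was at -0.42 and Mrvi1 at 0.34, so Mrvi1 changed sign. The Mrvi1 probe was well above background on 1 WT and 2 KE arrays.

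On a shared slide, Daglb, a diacylglycerol lipase, was 1.04 ± 0.43 (SE) higher in KE than in exercised WT with a limma adjusted p of 0.737. Homer1, which tethers IP3 receptors to metabotropic glutamate receptors, had an interaction of -1.26 ± 0.32 (SE) with a limma adjusted p of 0.479, from group means of 7.16 for WT, 7.56 for KO, 7.58 for exercised WT and 6.72 for KE.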

How the data were processed

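The 10 member genes and the gene lists were chosen with earlier results of these data known. The authors deposited scanner output of each array, in which values are the intensity of each spot as extracted by Agilent Feature Extraction 10.7.1.1, background-subtracted and detrended within the array. They also deposited a table of log2 values, quantile-normalized over the 12 arrays in GeneSpring, which was used here. Deposited tables of the authors' own comparisons (fold changes and p-values) and 84 further columns of per-sample values were not used. Detection was read from the scanner output, where a probe counted as detected when at least 50% of its spots were well above background. No spot was saturated, and the raw intensity matched the scanner output within 0.01 on the log2 scale at 56514 to 56589 of 56605 probes.

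Group means over all 12 arrays were fitted by lmFit and eBayes of limma 3.58.1 (R 4.3.3), with Benjamini-Hochberg adjustment over 35230 probes. The number of arrays limits the precision. The fits were tested on simulated data with known answers. Groups came from the sample labels. Values on each array are given for member probes past the screening criterion and for the brightest tested probe of every other member gene, and other probes singled out were chosen after their values were seen. Alternatives were other background corrections, scalings, filters and fits, the slide and the replicate number as blocks, and leaving out each array. Probe positions are from the array annotation, and exon and UTR annotation of mm9 was not used here.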

Additional observations from a re-analysis of the deposited data

Results flagged for a closer look

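At Plcb2 base 1753 (A_55_P1961444) the fitted swimming by genotype interaction was 4.34 on the log2 scale, which met the screening criterion, with a limma adjusted p of 0.413. The signal was 1.87 in exercised WT against 5.21 in WT, and 3.19 in KE against 2.19 in KO. The 3 groups other than WT were not well above background, so the direction between KE and KO is not measured. The detection filter kept the probe through WT alone, which fixes the sign of the interaction, and no difference between genotypes is read from it. The interaction was 4.17 with the slide as a block and 0.84 under normexp background correction.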

How the results depend on the processing

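The main count of member probes past the screening criterion was 1 in each of the 6 comparisons. It became 0 in all 6 under normexp background correction. There the calls over all probes fell too, in KO versus WT from 54 higher and 25 lower to 2 and 0. The count was also 0 in all 6 among probes detected on all 12 arrays, and 0 in KE versus exercised WT with the detection filter on the groups compared. Those filters remove the called probes, so these counts were fixed in advance. The count became 0 in the 5 pairwise comparisons when probes were averaged per gene, and 0 in KE versus KO with the slide as a block. It became 2 in KE versus KO under 75th percentile scaling, with the groups compared alone in the fit, and with the replicate number as a block, each time by Plcb2 base 1753. The direction of that probe is not measured there because none of the 6 arrays was well above background. Within slide 2 the count in KE versus KO stayed at 1 but was that Plcb2 probe, again below background, with KO as 1 array assumed to vary like the other groups. Leaving out 1 array gave counts of 0 to 2 in KE versus KO (0 without KO replicate 1, 2 without KO replicate 2 or KE replicate 1), 0 to 1 in KE versus exercised WT (0 without KE replicate 2), 1 to 2 in KE versus WT (2 without KE replicate 3) and 1 in the others.

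Member probes with an adjusted p under 0.05 numbered 0 throughout, except 2 in KE versus WT under normexp, 4 in exercised WT versus WT and 10 in KE versus WT with the groups compared alone in the fit, 5 in KE versus WT by the methods' t-test, and 0 to 8 in KE versus KO on leaving out 1 array (8 without KO replicate 3). Over all probes the shares for these were 4.2%, 8.4%, 17.6%, 13.8% and 24.3%. Same-numbered arrays correlated at -0.19 to 0.24, so replicate numbers did not pair them, and 5 of 12 arrays were nearest to their own number; the replicate block changed no other count. Probes averaged per gene left Plcb2 at 1.37 in the interaction. That average rests on base 1753 (4.34), since the other tested Plcb2 probes gave -0.35 and 0.11, and nothing is read from it. The called Itpr2 value in KE versus KO kept its sign under every alternative that kept the probe. That contrast chose the gene, so the kept sign is a description and not a test. The value fell under the 2-fold limit with normexp (-0.32), with the slide as a block or within slide 2 (-0.56), and without KO replicate 1 (-0.93). For Plcb2 base 1753 the detection filter fixed the sign against WT and in the interaction. In KE versus exercised WT that probe was not well above background, so nothing is read from its sign. Of the 14 calls of the wider pathway lists, 7 changed sign with the slide as a block. Plcb2 base 1753 lies near background, where the correction sets its size: KO versus WT was -0.64 under normexp against -3.02. Slide blocks rest on the lone KO array of slide 2.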
